A study of Mus musculus with 48 samples.

Results

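White preadipocytes that lack HMGN1 and HMGN2 were compared with wild-type (WT) preadipocytes before any differentiation stimulus, at day 0, using 3 double knockout (DKO) and 3 WT RNA-seq libraries of the 48 libraries in the series. Every gene of the deposited table that passed edgeR's filter on low counts was kept, which left 15123 of 55450 genes. Both genotypes carry the strain label C57BL/6. The cells were taken from inguinal white adipose tissue of adult mice, cultured on collagen-coated plates and grown to confluence. At day 0 neither genotype had received the medium with insulin, dexamethasone, IBMX, T3 and rosiglitazone that later turns the cells into brown-like adipocytes. The DKO cells (genotype Hmgn1-/- and Hmgn2-/-) come from DKO mice, so neither gene was deleted in culture. The study's figure legend for these data gives 3 biological replicates and does not define them. The labels number the libraries 1 to 3 within a genotype and do not say which animals or cultures gave them. The p-values therefore measure the spread between these libraries, which may be partly technical. Later days and mouse embryonic fibroblasts (MEFs) of the same genotypes serve below only to show which differences of day 0 are found again.

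HMGN1 and HMGN2 are small nuclear proteins that bind nucleosomes without preference for a DNA sequence and are enriched in chromatin at active promoters and enhancers. They compete with linker histone H1 and are thought to keep regulatory chromatin accessible. Preadipocytes are fibroblast-like progenitors of the adipose stroma. They make abundant collagen and other matrix, and they become lipid-storing cells only after hormonal induction.

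The 6 libraries held between 19872366 and 36006679 counts, and TMM scaling factors lay between 0.973 and 1.02. Replicates of a genotype differed by more than sampling noise, so none was a repeat of another library. The first principal component held 43.3% of the variance and did not separate the genotypes, whereas the second, with 24.4%, did. Levels are CPM (counts scaled to a common library total) after TMM scaling. The 8 markers of preadipocytes summed to between 13380 and 13910 CPM in WT and between 16420 and 17470 CPM in DKO libraries. Most of this was Col1a1, and the other 7 overlapped, at 3132 to 3983 CPM (WT) and 3159 to 4400 CPM (DKO). DKO replicate 1 had the lowest levels of the stromal proteoglycan genes Dcn (221 CPM, others 582.5 to 1388 CPM) and Lum (14.4 CPM, others 54.1 to 153.8 CPM). Markers of macrophages summed to between 126 and 471 CPM in WT and between 32.1 and 335 CPM in DKO libraries, and none of the 6 was called different by edgeR. The endothelial markers reached 12.1 to 21.3 CPM (WT) and 9.77 to 27.4 CPM (DKO). The myoblast markers Pax7, Myf5, Myod1, Myog and Ttn and the mature adipocyte markers Cidec and Lep stayed under 1 CPM in every library. All mature adipocyte markers summed to between 6.13 and 9.90 CPM in WT and between 5.24 and 26.4 CPM in DKO libraries. DKO replicate 2 had the highest levels of Adipoq (3.17 CPM, others up to 0.314 CPM), Plin1 (3.79 CPM, others up to 0.941 CPM) and Fabp4 (19.25 CPM, others up to 8.66 CPM). In such bulk libraries, fewer cells of a type and less RNA per cell cannot be told apart.

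Of the deleted genes, Hmgn2 lost nearly all counts and Hmgn1 part of them. Hmgn2 (mm10 chromosome 4, from 133964738 to 133968650, minus strand) had 47.0, 34.3 and 54.2 CPM in the WT libraries and 0.114, 0 and 0 CPM in the DKO libraries (adjusted p = 0.00185, edgeR). Hmgn1 (chromosome 16, 96120618 to 96127729, minus strand) had 165, 138 and 175 CPM in the WT and 90.3, 99.9 and 104 CPM in the DKO libraries. The groups did not overlap for either gene. For Hmgn1 the log2 fold change of -0.70 ± 0.11 (SE) missed the threshold in edgeR (adjusted p = 0.0969), and DESeq2 called it. Counts per gene do not resolve which exons the remaining Hmgn1 reads cover, so they do not check the deletion. The other family members that were measured had close means, 16.8 ± 2.52 against 16.4 ± 2.37 CPM for Hmgn3 and 11.3 ± 1.89 against 11.6 ± 0.576 CPM for Hmgn5 (WT and DKO, SD, n = 3), with overlapping libraries. Of the genes tested within 5 Mb of Hmgn1 (46) and of Hmgn2 (152), 0 were called by edgeR, DESeq2 or limma-voom. These tools called 0.218%, 0.959% and 0.238% of all tested genes. By edgeR, 3 and 11 (6.52% and 7.24%) had an unadjusted p-value under 0.05, against 7.86% of all tested genes. Within 2 Mb the shares were 4.35% of 23 genes and 11% of 73 genes. The nearest tested neighbours, Brwd1 and Wrb beside Hmgn1 and Rps6ka1 and Dhdds beside Hmgn2, had log2 fold changes of 0.01, 0.05, -0.05 and -0.17.

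Genes were called where the adjusted p-value was below 0.05 and levels differed by 1.5-fold or more. By this rule 33 genes (0.218% of those tested) differed between DKO and WT preadipocytes, with 11 higher (0.0727%) and 22 lower (0.145%) in DKO cells. In all 33 the CPM of the DKO libraries lay outside the range of the WT libraries, and 14.9% of all tested genes had no overlap (7.35% with DKO above WT, 7.50% below). Among the 33 were 18 protein-coding genes and 11 pseudogenes, so that pseudogenes made up 33.3% of the called genes and 8.05% of the tested genes. Of the 33 called genes, 18 shared at least 10% of their 50-base words (50 bases being the read length) with transcripts of other genes, against 16.5% of all tested genes. For these genes, the division of reads among copies enters each value. The genes are therefore described in 3 groups, the copies of other genes, the H2-T genes on chromosome 17, and the remaining genes.

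**Figure D1:**
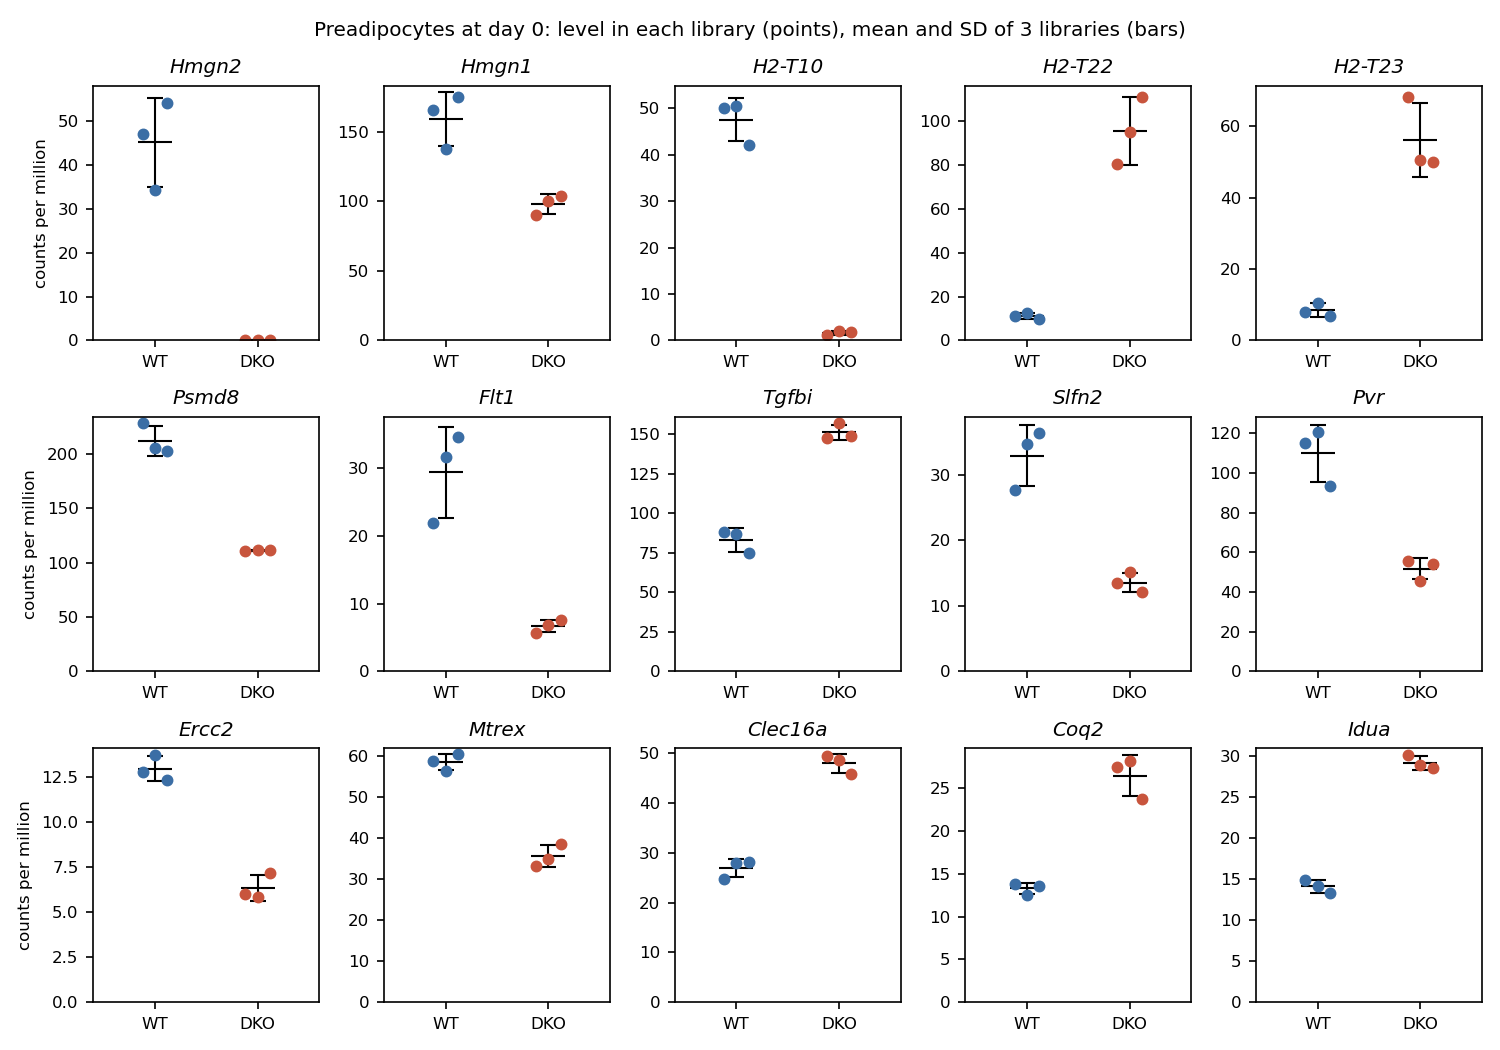
Level of 15 genes in each preadipocyte library of day 0, in CPM after TMM scaling, with WT libraries in blue and DKO libraries in red. Horizontal bars give the mean and vertical bars the SD of 3 libraries. The groups overlap in no panel. Of the genes shown, Hmgn1 alone was not called.

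The first group consists of pseudogenes and other copies, most of them processed pseudogenes, and of their parent genes. Rplp0 encodes a protein of the large ribosomal subunit's stalk, and 3 processed pseudogenes derived from it were called. Gm8730 had 508, 469 and 444 CPM in the WT and 29.3, 26.1 and 23.3 CPM in the DKO libraries, a log2 fold change of -4.17 ± 0.12 (SE, adjusted p = 3.75e-05). Gm9625 had 115, 104 and 111 CPM in the WT and 17.1, 18.0 and 17.4 CPM in the DKO libraries, and Gm14165 had 11.6, 12.5 and 13.1 CPM in the WT and 3.46, 4.41 and 5.43 CPM in the DKO libraries. All 3 copies were low in every DKO library. Rplp0 itself was high in every DKO library, with 1403, 1426 and 1318 CPM against 902, 812 and 816 CPM in WT (log2 fold change 0.71 ± 0.08, adjusted p = 0.0322). The sum of the 4 genes was 1440 ± 84.2 CPM in WT and 1431 ± 58.6 CPM in DKO libraries (SD, n = 3), and the groups overlapped. The parent and its copies are shown over 90 bases, with capitals at the positions where any of the 4 sequences differs. A read inside this stretch can by itself be placed only by these few bases, although its paired read may lie outside. The sequences were read from GENCODE M21 transcripts (mm10). The stretches lie at chr5:115560793-115560882 (plus strand, in 1 exon of Rplp0-201), chr8:102865603-102865692 (minus strand), chr13:67810352-67810441 (plus strand) and chr2:152353721-152353810 (plus strand), in the order printed.
Rplp0: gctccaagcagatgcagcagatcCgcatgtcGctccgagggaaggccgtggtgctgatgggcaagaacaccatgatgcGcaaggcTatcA
Gm8730: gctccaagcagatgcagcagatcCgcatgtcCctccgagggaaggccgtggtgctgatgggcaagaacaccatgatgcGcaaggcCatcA
Gm9625: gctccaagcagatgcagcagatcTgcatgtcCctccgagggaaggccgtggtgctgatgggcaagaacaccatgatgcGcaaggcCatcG
Gm14165: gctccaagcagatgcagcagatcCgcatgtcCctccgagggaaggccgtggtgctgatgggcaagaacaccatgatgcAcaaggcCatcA

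Within this stretch Gm8730, Gm9625 and Gm14165 differed from Rplp0 at 2, 4 and 3 positions. Over the coding sequence of 951 bases they were 98.7%, 97.5% and 97.4% identical to it.

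The called copies of Hmgn2 were lower in DKO cells, as Hmgn2 was. Gm10282 had 4.31, 4.01 and 4.36 CPM in WT libraries and Gm10182 had 1.39, 1.20 and 1.68 CPM, and both were at 0 in all DKO libraries. Against a floor of 3 counts per library this makes Gm10282 at least 37.6-fold and Gm10182 at least 12.7-fold lower in DKO cells (adjusted p = 0.00845 and 0.0405). Both hold the coding sequence of Hmgn2-202 (270 bases) with 100% identity. The following stretch of 60 bases, with no base that could assign a read to any of the 3 genes without its paired read, shows this. It lies at chr4:133966023-133966464 (minus strand, across 2 exons of Hmgn2-202), chr8:72305017-72305076 and chr9:22321213-22321272 (both minus strand) in mm10, as given by GENCODE M21.
Hmgn2: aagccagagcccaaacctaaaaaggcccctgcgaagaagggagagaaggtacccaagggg
Gm10282: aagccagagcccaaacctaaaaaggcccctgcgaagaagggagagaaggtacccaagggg
Gm10182: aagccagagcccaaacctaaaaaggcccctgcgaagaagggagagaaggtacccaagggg

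For the remaining copies, parent and copy were compared in the same way. Gm3375, a copy of the proteasome catalytic subunit gene Psmb5, had 2.78, 2.49 and 2.13 CPM in the WT and 11.997, 22.97 and 25.4 CPM in the DKO libraries (log2 fold change 3.02 ± 0.31, adjusted p = 0.0256). Psmb5 averaged 78.6 ± 3.38 CPM in WT cells and 63.3 ± 10.3 CPM in DKO cells, and the sum of both overlapped between genotypes (81.1 ± 3.69 and 83.4 ± 5.64 CPM, SD, n = 3). Gm1821, a copy of the ubiquitin gene Ubb, had 113, 126 and 179 CPM in the WT and 36.5, 36.8 and 34.4 CPM in the DKO libraries (log2 fold change -1.96 ± 0.18, adjusted p = 0.0169). Ubb went the other way, 618 ± 149.6 against 962 ± 42.2 CPM, and here the sum did not overlap (758 ± 119.8 in WT and 998 ± 43.5 CPM in DKO, SD, n = 3).

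A pair of copies of Hmgb1, which encodes another abundant chromatin protein, were lower in DKO cells. Gm21596 had 9.78, 8.76 and 10.5 CPM in the WT and 0.714, 0.583 and 0.802 CPM in the DKO libraries (log2 fold change -3.79 ± 0.19, adjusted p = 0.000844). Gm45315 had 8.35, 5.48 and 8.12 CPM in WT and 0 in every DKO library, at least 65.2-fold lower (adjusted p = 0.0109). The sum of Hmgb1 and these copies overlapped between the genotypes, with 201 ± 31.7 CPM in WT cells and 230 ± 33.4 CPM in DKO cells. Mid1-ps1, a copy of the ubiquitin ligase gene Mid1 on the Y chromosome, had 5.39, 7.14 and 8.76 CPM in the WT and 0.229, 0.0729 and 0.472 CPM in the DKO libraries. Mid1 had 30.5 ± 4.67 CPM in WT cells and 47.3 ± 6.69 CPM in DKO cells, and their sum overlapped. AC154457.3, a copy of the mitochondrial ribosomal gene Mrps10, fell by 3.17 on the log2 scale (SE 0.36, adjusted p = 0.0318) from a WT mean of 3.41 ± 0.329 CPM, while Mrps10 overlapped between genotypes and the sum of both did not (26.6 ± 2.61 CPM in WT cells, against 21.8 ± 0.936 CPM in DKO cells, SD, n = 3).

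**Figure D2:**
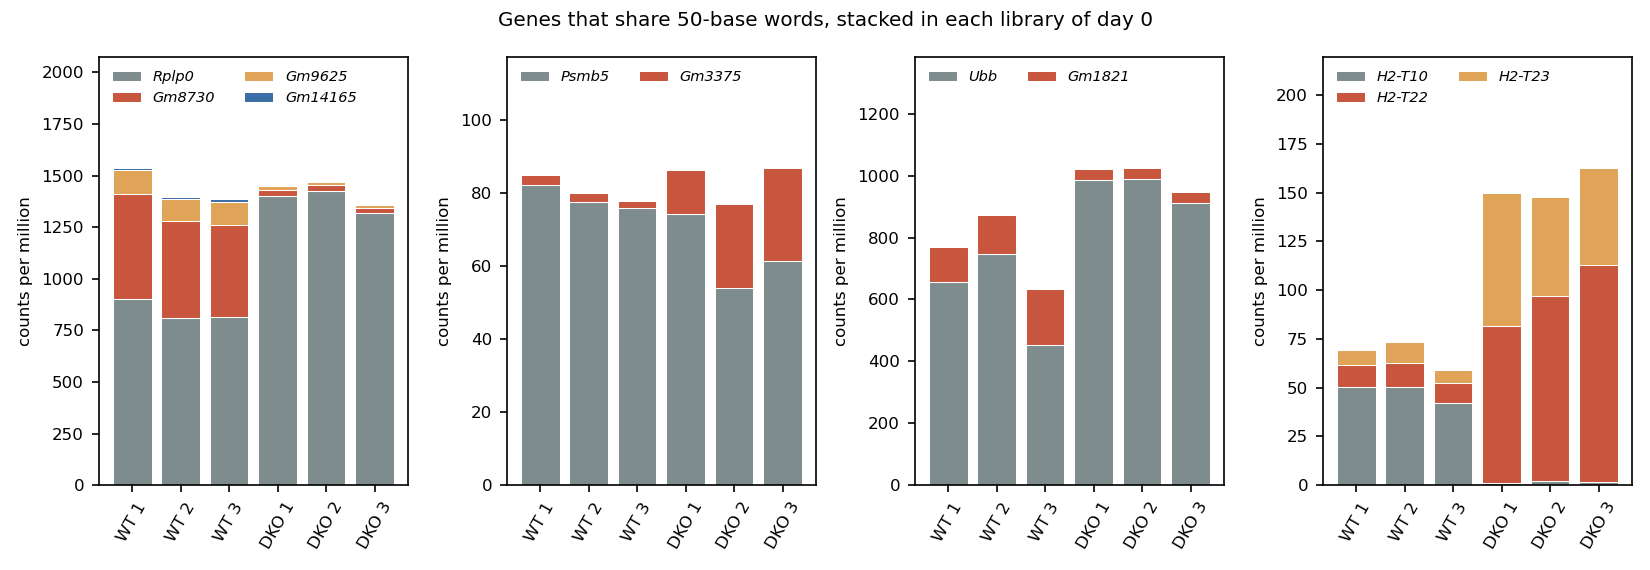
Stacked CPM of genes that share 50-base words, in each of the 6 libraries of day 0. In the Rplp0 and Psmb5 panels the total is alike in both genotypes (1440 and 1431 CPM for Rplp0, 81.1 and 83.4 CPM for Psmb5) while its division among the genes differs, and in the Ubb and H2-T panels the total is higher in DKO libraries.

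The second group lies in the major histocompatibility complex. H2-T22 and H2-T23 encode nonclassical MHC class I molecules, of which the H2-T23 product (Qa-1) presents peptides to receptors of natural killer cells, and H2-T10 is annotated as a polymorphic pseudogene. H2-T10 had 50.2, 50.4 and 42.2 CPM in the WT and 1.17, 2.04 and 1.75 CPM in the DKO libraries, a log2 fold change of -4.86 ± 0.21 (adjusted p = 0.000491). H2-T22 had 11.2, 12.3 and 9.95 CPM in the WT and 80.2, 95.1 and 111 CPM in the DKO libraries (3.10 ± 0.15, adjusted p = 0.000682). H2-T23 had 8.09, 10.6 and 6.88 CPM in the WT and 68.2, 50.4 and 49.96 CPM in the DKO libraries (2.72 ± 0.20, adjusted p = 0.00718). Thus every DKO library had little H2-T10 and much H2-T22 and H2-T23, and every WT library the reverse. H2-T10 and H2-T22 share 32.9% and 34.5% of their 50-base words with other genes, mostly with each other, but the sum of the 3 genes did not overlap either, at 67.3 ± 7.41 CPM in WT cells and 153 ± 8.14 CPM in DKO cells (SD, n = 3).

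A pair of antisense genes in the same block were lower in DKO cells. BC023719 had 9.52, 9.73 and 8.71 CPM in WT and 0 in all DKO libraries, at least 83.1-fold lower (adjusted p = 0.00234). A930015D03Rik had 4.78, 4.89 and 4.36 CPM in the WT and 0.628, 0.583 and 0.236 CPM in the DKO libraries (log2 fold change -3.22 ± 0.34, adjusted p = 0.0249). The libraries were strand-specific, but whether strand was used in counting is not given in the sources used here, so reads of these genes and of their sense partners may not be fully separated. In the block from 35994453 to 36121465 on chromosome 17, 8 genes were tested, of which 5 were called, 7 had an unadjusted p-value under 0.05 and all 8 did not overlap between genotypes, against 0.218%, 7.86% and 14.9% of all tested genes. The ends of the block were set by called genes, so these counts are a description. Just outside the threshold in this neighbourhood were Gm7030 (1.13 ± 0.186 against 0.205 ± 0.0443 CPM) and H2-Bl (0.629 ± 0.0770 against 0.0122 ± 0.0211 CPM), both with an adjusted p of 0.0708. The classical class I genes differed less. H2-K1 averaged 98.6 ± 3.81 CPM (WT) and 74.0 ± 10.2 CPM (DKO) (adjusted p = 0.398), its light chain gene B2m had 526 ± 32.5 and 398 ± 20.3 CPM (adjusted p = 0.228), and H2-D1 had a log2 fold change of -0.18.

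The third group is made up of genes that share under 10% of their words with others. Psmd8, Mtrex and Ercc2 were each lower in DKO cells. Psmd8, which encodes a subunit of the proteasome's regulatory particle, had 228, 205 and 203 CPM in the WT and 111, 111 and 111 CPM in the DKO libraries (log2 fold change -0.93 ± 0.07, adjusted p = 0.00665). Mtrex, the RNA helicase that feeds the nuclear exosome, had 58.7, 56.4 and 60.4 CPM in the WT and 33.3, 35.0 and 38.5 CPM in the DKO libraries (-0.72 ± 0.08, adjusted p = 0.0249). Ercc2, a helicase of the transcription and repair factor TFIIH, had 12.8, 13.7 and 12.3 CPM in the WT and 6.00, 5.83 and 7.17 CPM in the DKO libraries (-1.03 ± 0.13, adjusted p = 0.0425). For all 3 the lowest WT library was well above the highest DKO library.

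Idua, Coq2 and Clec16a were each higher in DKO cells. Idua, the lysosomal iduronidase that degrades glycosaminoglycans, had 14.9, 14.2 and 13.4 CPM in the WT and 30.1, 28.9 and 28.5 CPM in the DKO libraries (log2 fold change 1.04 ± 0.08, adjusted p = 0.00718). Coq2, an enzyme of coenzyme Q synthesis, had 13.8, 12.5 and 13.5 CPM in the WT and 27.5, 28.1 and 23.7 CPM in the DKO libraries (0.99 ± 0.10, adjusted p = 0.0216). Clec16a, an endolysosomal protein with a role in mitophagy, had 24.8, 27.8 and 28.02 CPM in the WT and 49.2, 48.5 and 45.8 CPM in the DKO libraries (0.83 ± 0.08, adjusted p = 0.0169). The replicates of these 3 genes lay close together in both genotypes.

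Several called genes encode proteins of the cell surface or matrix. Flt1, a receptor for vascular endothelial growth factor, had 21.9, 31.7 and 34.6 CPM in the WT and 5.68, 6.86 and 7.55 CPM in the DKO libraries (log2 fold change -2.14 ± 0.20, adjusted p = 0.0169). The endothelial markers were present at similar sums in both genotypes, as given above, and their part in the level of Flt1 was not tested. Pvr (CD155), an adhesion molecule of the nectin family, had 115, 121 and 93.5 CPM in the WT and 55.6, 45.6 and 54.3 CPM in the DKO libraries (-1.08 ± 0.12, adjusted p = 0.0318). Tgfbi, a matrix protein induced by TGF-beta, had 88.3, 86.6 and 74.6 CPM in the WT and 147, 157 and 149 CPM in the DKO libraries (0.86 ± 0.08, adjusted p = 0.0177). Flt1 and Pvr were thus lower and Tgfbi higher in each DKO library than in any WT library. Mill2, an MHC class I-like gene, was higher at 12.7 ± 0.779 against 6.31 ± 0.287 CPM (adjusted p = 0.0272), and Igsf23, of the immunoglobulin superfamily, rose from 0.123 ± 0.0531 to 1.33 ± 0.260 CPM (adjusted p = 0.0403). Slfn2, a Schlafen family gene with a known role in immune cell quiescence, fell from 27.6, 34.7 and 36.3 CPM in WT to 13.4, 15.1 and 12.1 CPM in DKO libraries (-1.28 ± 0.14, adjusted p = 0.0249).

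Among the noncoding genes of this group, Gm45104 (chromosome 7, 18396516 to 18400865) had 0 counts in all WT libraries and 12.5, 12.9 and 11.6 CPM in DKO libraries, at least 88.6-fold higher in DKO cells (adjusted p = 0.00182). The lincRNA 9330104G04Rik had 1.91, 2.54 and 2.03 CPM in the WT and 0.257, 0.365 and 0.236 CPM in the DKO libraries (log2 fold change -2.89 ± 0.30, adjusted p = 0.0249).

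The called genes were unevenly spread over the chromosomes. Chromosome 7 carried 9 of them (0.797% of its tested genes) and chromosome 17 carried 6 (0.823%), while the other genes were on 11 chromosomes with at most 4 on any. On chromosome 7, 6 called genes (9330104G04Rik, Gm45104, Mill2, Ercc2, Pvr and Igsf23) lay between 16871347 and 19950756. Of the 49 genes tested in that interval, 21 had an unadjusted p-value under 0.05 (7.86% of all tested genes did) and 25 did not overlap between genotypes (14.9% of all did). This interval too was bounded by called genes. Uncalled genes of the interval include Apoe, the main lipoprotein ligand of peripheral cells, with 39.9, 29.5 and 24.9 CPM in the WT and 156, 379 and 209 CPM in the DKO libraries (log2 fold change 2.98 ± 0.38, adjusted p = 0.0700). Its neighbour Apoc1 had 0 counts in every WT library and 7.37, 9.08 and 3.68 CPM in DKO libraries, at least 48.2-fold higher (adjusted p = 0.0563). Ercc1, the partner of an excision repair endonuclease, had 23.998 ± 1.39 and 40.5 ± 5.08 CPM (adjusted p = 0.0802). For Apoe, the 3 DKO libraries differed more among themselves than the WT libraries did.

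The genes just outside the threshold were the following. The uncalled genes with the smallest p-values among those with higher levels in DKO cells were Nnt, the mitochondrial transhydrogenase (35.8 ± 3.53 and 58.6 ± 3.14 CPM for the longer of its 2 gene entries), Apoc1, Polh (14.3 ± 1.61 and 24.9 ± 0.815 CPM), Pkdcc (23.2 ± 2.65 and 39.1 ± 2.02 CPM) and Apoe. The second entry of Nnt, which shares sequence with the first, had 0, 0 and 0.248 CPM in the WT and 2.23, 6.96 and 9.53 CPM in the DKO libraries (adjusted p = 0.187), and it is named after its values were seen. Nnt is known to differ between C57BL/6 substrains, which the labels do not give, and the part of this in its values was not tested. Those with lower levels were 1 of 2 entries of Myl12b, a myosin light chain gene (316 ± 41.9 and 179 ± 9.03 CPM), Pop1 (20.1 ± 1.46 and 12.2 ± 0.394 CPM), Gm20186 (14.1 ± 2.16 and 6.63 ± 0.542 CPM), Gm7030 and H2-Bl. Their adjusted p-values lay between 0.0522 and 0.0708, and just inside were Igsf23 (0.0403) and Gm14165 (0.0425).

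Libraries of the later days and of MEFs, none of which entered the comparison of day 0, show which called genes were found again. The labels do not say whether the later days come from the cultures of day 0. Hmgn2, deleted in the DKO mice, and its copies Gm10282 and Gm10182 were among the genes called again on each later preadipocyte day. The same test fitted to each day called 23 of 32 measured genes in the same direction in preadipocytes at day 3, when 0.337% of all tested genes were called. At day 6 it called 22 of 32 (background 11.6%) and at day 9 21 of 32 (background 1.24%). In MEFs the numbers were 9 of 30 at day 0 (background 0.102%), 9 of 30 at day 4 (0.0905%), 7 of 30 at day 8 (0.0595%) and 16 of 30 at day 12 (7.98%). None of the 33 genes was called in the opposite direction. In all, 20 genes were called on all 4 days, 9 at day 0 and no later preadipocyte day, and 4 at 1 or 2 later days (Idua, Slfn2, Pvr and Rplp0). The 9 genes called at day 0 only included Psmd8, Flt1, Tgfbi, 9330104G04Rik, Mtrex, Mill2, Igsf23 and Ercc2, of which Igsf23 did not pass the filter on low counts on any later day. None of these 9 shared 10% of its words with other genes, whereas 17 of the 20 genes called on all 4 days did. Being called on fewer days does not show that the effect differed, and a separate interaction test addressed that.

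**Figure D3:**
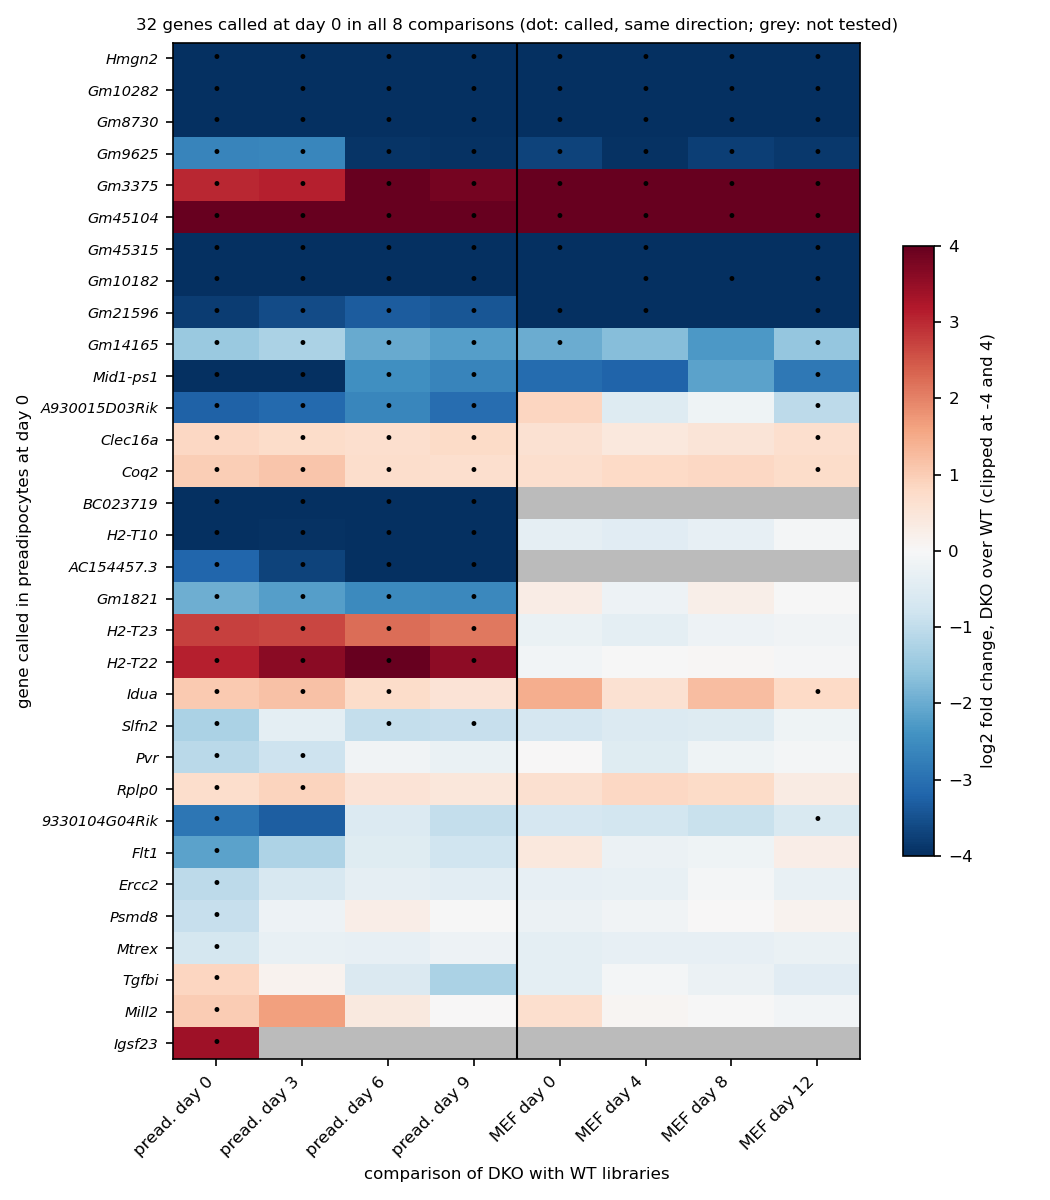
Log2 fold change, DKO over WT, of 32 of the 33 genes called at day 0 (rows) in the 4 preadipocyte and 4 MEF comparisons (columns), from separate fits and clipped at -4 and 4. Dots mark calls in the direction of day 0 and grey cells were not tested, and fits of genes with a group at 0 are not bounds. The 20 genes at the top have dots in all 4 preadipocyte columns, and 14 of these have a dot in at least 1 MEF column.

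This test, set as a log2 difference between the DKO effect elsewhere and at day 0, was passed by 0.0125% of genes for day 3, 4.55% for day 6, 0.0555% for day 9 and 0.0844% for MEFs. Psmd8 passed it for all 3 later days, with a smaller gap between the genotypes at days 3 and 9 and a higher DKO than WT mean at day 6 (138 ± 10.02 and 165 ± 10.7 CPM). It was 212 ± 13.8 CPM in WT cells and 111 ± 0.181 CPM in DKO cells at day 0 and 115 ± 1.88 and 100 ± 3.35 CPM at day 3, with levels of each day scaled within that day. The interaction at day 3 was 0.70 on the log2 scale. Flt1 also differed between days, with 10.3 ± 3.40 CPM in WT cells and 7.41 ± 3.04 CPM in DKO cells at day 6 and an interaction of 1.70. In MEFs at day 0 Flt1 was 148 ± 11.97 CPM in WT cells and 201 ± 70.2 CPM in DKO cells.

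The levels of the H2-T genes in MEFs did not follow the genotype. At day 0, MEFs of both genotypes resembled DKO preadipocytes, with 3.13 ± 0.331 and 2.42 ± 0.678 CPM of H2-T10 (WT and DKO) and 67.8 ± 1.86 and 63.5 ± 10.2 CPM of H2-T22, each table being scaled on its own. H2-T23 had 62.5 ± 2.173 and 52.2 ± 5.32 CPM there. BC023719 was at 0 in all WT MEF libraries of day 0. WT and DKO preadipocytes stood apart for these genes on all 4 days. The labels give the strain as C57BL/6 with no substrain, and whether the WT preadipocyte donors differ from the other mice in genetic background, at these genes or elsewhere on chromosomes 7 and 17, was not tested. At day 6, for example, H2-T10 had 7.09 ± 0.351 CPM in WT cells, against 0.388 ± 0.200 CPM in DKO preadipocytes. Gm1821 showed a like order, with 139 ± 35.0 CPM in WT preadipocytes but 35.9 ± 1.298 CPM in DKO preadipocytes, 31.9 ± 2.86 CPM in WT MEFs and 39.3 ± 1.61 CPM in DKO MEFs at day 0. The copies of Rplp0 behaved otherwise. Gm8730 was at 387 ± 11.3 CPM in WT and 8.51 ± 0.561 CPM in DKO MEFs at day 0. Likewise Gm45104 was at 0 in WT MEFs and at 12.9 ± 1.04 CPM in DKO MEFs, so these genes followed the genotype in both cell sources. Apoe did not, at 1666 ± 134.5 CPM in WT and 1120 ± 252.7 CPM in DKO MEFs.

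Interferon-stimulated genes are the antiviral genes that cells switch on after sensing type I interferon, and many cultured cells express them at a low tonic level. Of 29 listed genes 28 were tested, and none was called by edgeR or limma-voom. DESeq2 called 8 of them lower (Ifih1, Zbp1, Ifi44, Gbp3, Oasl2, Usp18, Oas2 and Ifit1), where it called 0.549% of all tested genes lower, and 0.959% in either direction (limma-voom 0.238%). By edgeR, 22 of the 28 had lower levels in DKO cells at an unadjusted p-value under 0.05, against 3.93% of all tested genes, and 27 of 28 had a log2 fold change below 0. The median was -0.86, beside 0.00059 for all tested genes. The members include sensors and effectors. Oasl2, of the oligoadenylate synthetase family, had 26.0, 67.3 and 55.7 CPM in the WT and 17.2, 15.8 and 18.5 CPM in the DKO libraries. Ifit1, which binds foreign RNA ends, had 17.3, 50.1 and 44.1 CPM in the WT and 14.3, 13.4 and 13.02 CPM in the DKO libraries. The groups did not overlap for these genes, but WT replicate 1 was close to the DKO libraries.

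Usp18, which limits interferon receptor signalling, had 9.61, 23.7 and 21.04 CPM in the WT and 5.77, 6.05 and 7.88 CPM in the DKO libraries. Isg15, a ubiquitin-like modifier, had 27.5, 83.8 and 38.1 CPM in the WT and 31.2, 12.3 and 12.5 CPM in the DKO libraries, and its groups overlapped. The transducer Irf9 (44.9 ± 8.81 and 34.0 ± 1.00 CPM) overlapped as well. Irf1 had the only log2 fold change above 0, at 0.07. In total, DKO libraries lay fully below WT libraries for 12 of the 28 genes (7.50% of all tested genes did). The summed level of the listed genes was 726, 1220 and 1068 CPM in the WT and 664, 611 and 673 CPM in the DKO libraries. Leaving out WT replicate 1 raised the 22 genes to 24 and the calls to 3 (Gbp3, Oasl2 and Ifit1). Without WT replicate 2 or 3 the number was 10 or 11, without DKO replicate 1, 2 or 3 it was 18, 12 or 15, and in 1 fit over all 24 preadipocyte libraries it was 7. The median lay between -1.06 and -0.69 under all alternatives run. Macrophages can also express these genes, and their part in these values, given the marker sums above, was not tested.

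The same list was then read in the other libraries. In MEFs at day 0 the summed level was 1188, 1044 and 1190 CPM in the WT and 829, 728 and 685 CPM in the DKO libraries, again without overlap. There 23 of 29 genes were lower at an unadjusted p-value under 0.05 (background 4.84%) with a median of -0.95, edgeR and limma-voom called 0 and DESeq2 called 15 (limma-voom called 0.134% and DESeq2 1.06% of all tested genes). At day 3 of preadipocytes the sums overlapped (270, 303 and 376 CPM in WT, 270, 320 and 343 CPM in DKO libraries). At day 6 the sums overlapped as well (658, 560 and 670.5 CPM in WT, 495, 735 and 482 CPM in DKO libraries), but 17 of 26 genes were lower at an unadjusted p-value under 0.05 (background 18.3%), 6 were called lower by edgeR (background 6.53%) and the median was -1.19. At day 12 of MEFs the sums were higher in DKO cells (754, 740 and 748 CPM in WT, 873, 843 and 886 CPM in DKO libraries). At day 9 of preadipocytes and days 4 and 8 of MEFs the sums overlapped too. The list median was -0.50 and -0.35 at days 3 and 9 of preadipocytes. In MEFs it was -0.19, -0.32 and 0.07 at days 4, 8 and 12. The summed level was thus lower in DKO libraries without overlap at day 0 of both sources, and at day 6 its preadipocyte sums overlapped although 6 members were called. No member tested at day 0 passed the interaction test against day 0 preadipocytes at days 3, 6 or 9 or in MEFs at day 0. This does not show that the effects were alike.

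The promoters of the list were searched for GAAANNGAAA on both strands, the core of the interferon-stimulated response element, in the 300 bases around the start given by RefSeq (GRCm38.p6, 250 before and 50 after). It was found in 13 of 22 tested list members with a promoter in the table (59.1%) and in 397 of 10582 tested genes (3.75%). Among list members with an unadjusted p-value under 0.05 it was found in 11 of 16 (68.8%), and among the called genes in 3 of 16 (18.8%). As examples, the 120 bases before the start of 3 such genes follow, 5′ to 3′ on the gene's strand, with matches to the motif or its reverse complement in capitals. They lie at chr19:34640769-34640888 (plus), chr4:156200819-156200938 (minus) and chr5:120907526-120907645 (minus). A match is a description of these letters, not proof of binding. The list was chosen as interferon-stimulated genes, so its high share of matches was likely beforehand and does not bear on the DKO effect.
Ifit1: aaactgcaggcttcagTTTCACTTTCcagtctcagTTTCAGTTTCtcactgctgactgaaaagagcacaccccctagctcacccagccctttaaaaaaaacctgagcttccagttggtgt
Isg15: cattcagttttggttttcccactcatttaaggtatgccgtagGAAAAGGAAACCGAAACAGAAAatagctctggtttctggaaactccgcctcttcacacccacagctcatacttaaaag
Oas1a: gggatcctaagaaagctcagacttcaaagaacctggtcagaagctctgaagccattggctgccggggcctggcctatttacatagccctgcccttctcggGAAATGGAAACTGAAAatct

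The 3 promoters hold 2, 3 and 2 matches, some of which overlap, and Oas1a had 4.78, 6.13 and 6.09 CPM in the WT and 1.69, 3.76 and 2.64 CPM in the DKO libraries.

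**Figure D4:**
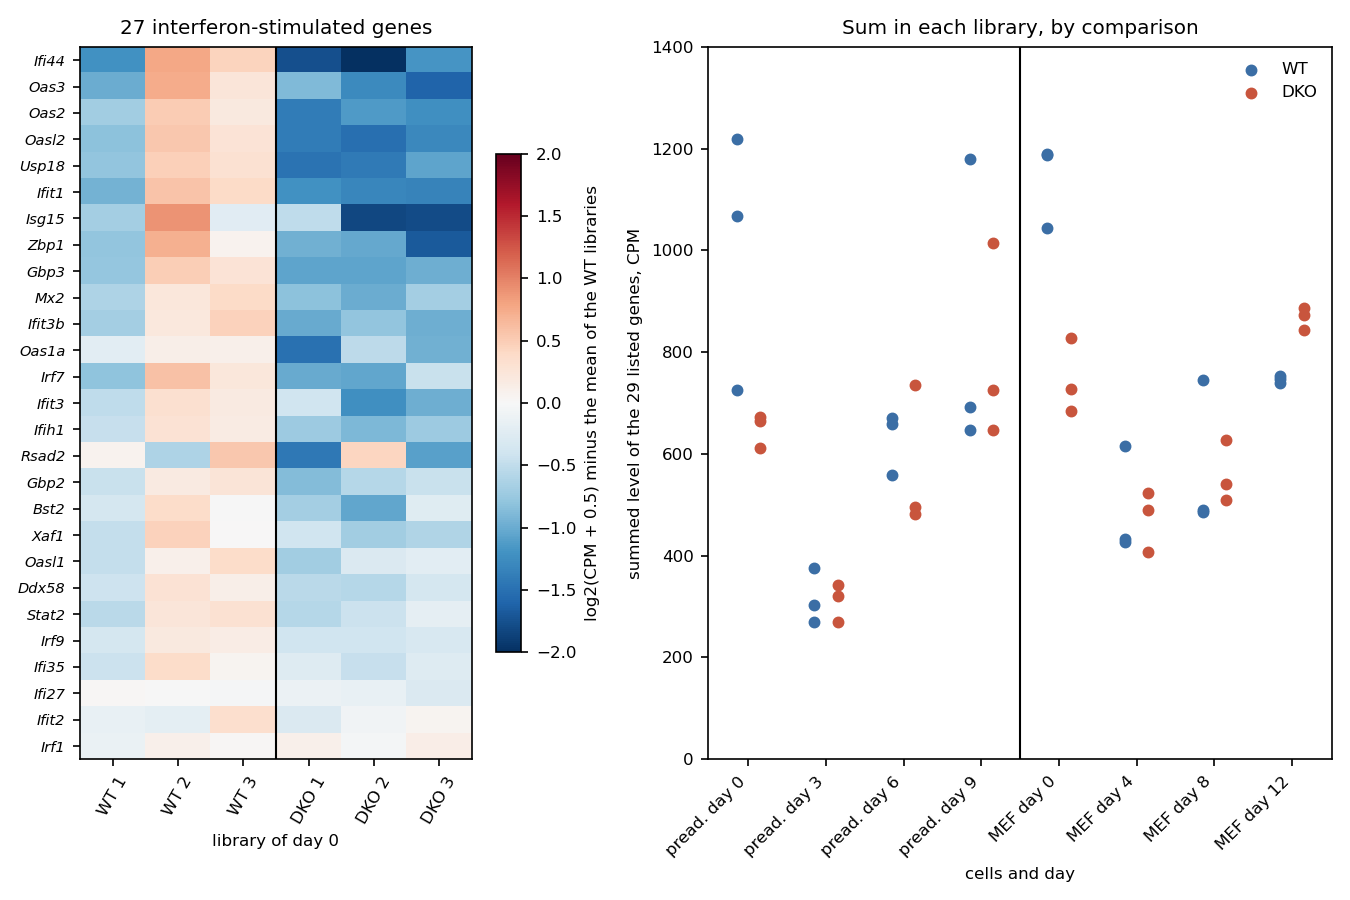
Left, log2(CPM + 0.5) of 27 of the 28 tested interferon-stimulated genes in each library of day 0, minus the mean of the WT libraries. Right, the summed CPM of the 29 listed genes in each library of each comparison, with WT in blue and DKO in red. WT replicate 1 (726 CPM) lies nearest to the DKO libraries (611 to 673 CPM).

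Matrix genes were compared because preadipocytes are matrix-producing cells. Of 24 collagens, none was called by edgeR or limma-voom and 2 (Col14a1 and Col3a1) were called by DESeq2, which called 0.959% of all tested genes. By edgeR, 8 had higher and 1 had lower levels in DKO cells at an unadjusted p-value under 0.05 (backgrounds 3.92% and 3.93%), and the median was 0.27. Col3a1, of fibrillar type III collagen, had 9951, 9065 and 8742 CPM in the WT and 16148, 22055 and 11188 CPM in the DKO libraries (adjusted p = 0.454). Col14a1, a fibril-associated collagen, had 35.6, 59.3 and 41.9 CPM in the WT and 177, 148 and 69.6 CPM in the DKO libraries (adjusted p = 0.397). For both genes the DKO libraries were all above the WT libraries and spread widely. All DKO libraries lay above all WT libraries for 9 of the 24 collagens and below for 1 (7.35% and 7.50% of all tested genes). The median of the list was 0.13 without DKO replicate 1 and lay between 0.24 and 0.34 without any of the other libraries. Col1a2 had a log2 fold change of 0.34 ± 0.10, which turned to -0.09 under limma-voom with quantile normalization.

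Among 24 matrix proteases and inhibitors, 9 had an unadjusted p-value under 0.05 (background 7.86%), of which 6 were higher in DKO cells. There were 0 calls by edgeR and limma-voom and 4 by DESeq2 (Mmp9, Adamts2, Mmp3 and Mmp10), which called 0.959% of all tested genes. Adamts2, which trims the ends of procollagens, had 239, 287 and 253 CPM in the WT and 486, 477 and 389 CPM in the DKO libraries (log2 fold change 0.80 ± 0.12, adjusted p = 0.0806). Mmp3, a stromelysin, had 460, 347 and 454 CPM in the WT and 190, 289 and 166 CPM in the DKO libraries (adjusted p = 0.376), and Mmp10 had 9.28 ± 4.59 and 2.03 ± 0.337 CPM (adjusted p = 0.261). The groups overlapped for none of these 3 genes, and 14.9% of all tested genes had no overlap. In the list, all DKO libraries lay above all WT libraries for 7 genes and below for 3, against 7.35% and 7.50% of all tested genes. Among 28 other matrix proteins 8 reached that p-value (5 higher), edgeR and limma-voom called 0 and DESeq2 called 1, Anxa3, a membrane-binding annexin that had 207 ± 25.4 and 128 ± 19.8 CPM (adjusted p = 0.229).

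Regulators and markers of adipogenesis had 0 calls by edgeR at day 0, when it called 0.218% of all tested genes and DESeq2 0.959%. Of 34 regulators none was called by any of the 3 tools. At an unadjusted p-value under 0.05, 6 had higher and 1 had lower levels (backgrounds 3.92% and 3.93%). A log2 fold change above 0 was found for 28 of them, and the median was 0.14. Pparg, the master regulator of adipocyte differentiation, had 3.04, 4.47 and 2.92 CPM in the WT and 6.34, 6.93 and 3.21 CPM in the DKO libraries, which overlapped (adjusted p = 0.673). Ppara overlapped too, at 0.837 ± 0.135 and 1.14 ± 0.321 CPM. Of 21 mature adipocyte genes 0 were called by edgeR and limma-voom and 1 (Plin4) by DESeq2, with 2 at an unadjusted p-value under 0.05. Of 16 brown and beige adipocyte genes 0 were called by the 3 tools and 0 had such a p-value. In the AP-1 family, whose Fos and Jun proteins are activators of enhancers, none of 12 genes was called by the 3 tools. An unadjusted p-value under 0.05 was found for 3 (Maff, Fos and Jdp2), against 7.86% of all tested genes. Fos had 12.3, 17.7 and 14.9 CPM in the WT and 10.4, 6.89 and 9.81 CPM in the DKO libraries (log2 fold change -0.73 ± 0.20, adjusted p = 0.441). Jun (48.3 ± 9.21 and 47.4 ± 5.21 CPM) and Junb (34.7 ± 7.17 and 33.6 ± 7.10 CPM) overlapped, as did Fosl1 (17.2 ± 3.33 and 14.3 ± 2.81 CPM).

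Secreted signals showed a lower median. Of 22 chemokines and cytokines 5 had lower and 1 had higher levels in DKO cells at an unadjusted p-value under 0.05 (backgrounds 3.93% and 3.92%). The median was -0.34, with 0 calls by edgeR and limma-voom and 4 by DESeq2 (Ccl8, Ccl11, Il1rn and Lif). DESeq2 called 0.959% of all tested genes. Ccl11 (eotaxin), which attracts eosinophils, had 58.7, 43.3 and 39.8 CPM in the WT and 25.1, 21.8 and 10.9 CPM in the DKO libraries (adjusted p = 0.407). Lif, a cytokine of the interleukin-6 family, had 27.7, 34.6 and 25.9 CPM in the WT and 19.5, 15.2 and 13.6 CPM in the DKO libraries (adjusted p = 0.226). The receptor antagonist Il1rn went the other way, at 14.8 ± 4.12 and 31.6 ± 11.3 CPM (adjusted p = 0.454). Leaving out WT replicate 2 moved the median to -0.17.

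The remaining lists had medians between -0.11 and 0.22. Oxidative phosphorylation had 4 of 55 genes with lower levels at an unadjusted p-value under 0.05, a median of -0.07 and 0 calls by the 3 tools. Fatty acid oxidation (20 tested, median 0.07), cholesterol synthesis (21, -0.09), cell cycle and replication (31, -0.06), stress responses (28, -0.02), contractile smooth muscle genes (18, 0.05) and Hox and positional identity genes (37, -0.07) had 0 calls by the 3 tools. In these lists 1, 1, 1, 2, 0 and 0 genes had an unadjusted p-value under 0.05, against 7.86% of all tested genes. The Wnt pathway (28, median 0.22), the TGF-beta and BMP pathway (33, -0.0025), the IGF system (14, 0.04) and imprinted growth genes (20, 0.05) also had 0 calls, with 2, 2, 1 and 3 genes at that p-value. HMGA, HMGB and linker histone genes, which encode other architectural chromatin proteins, had 0 of 15 genes at that p-value and a median of -0.06, and 4 sex-linked genes had 0 as well, neither list with a call by the 3 tools. Of 23 preadipocyte and progenitor markers 0 were called by edgeR and limma-voom, 4 reached that p-value, and DESeq2 called Pi16 and Mmp3. Of 14 genes for antigen presentation by MHC class I, 2 were called by all 3 tools (H2-T22 and H2-T23) and 4 had lower levels at that p-value, with a median of -0.11. Of all tested genes edgeR, DESeq2 and limma-voom called 0.218%, 0.959% and 0.238%. Among the genes the study names, Itgb1 (1983 ± 108.9 and 1654 ± 75.2 CPM), F3 (925 ± 76.4 and 744 ± 128.9 CPM), Fosl2 (236 ± 2.81 and 261 ± 33.1 CPM) and Mmp2 (625 ± 98.2 and 920 ± 252.2 CPM) had adjusted p-values of 0.519, 0.643, 0.765 and 0.623.

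**Figure D5:**
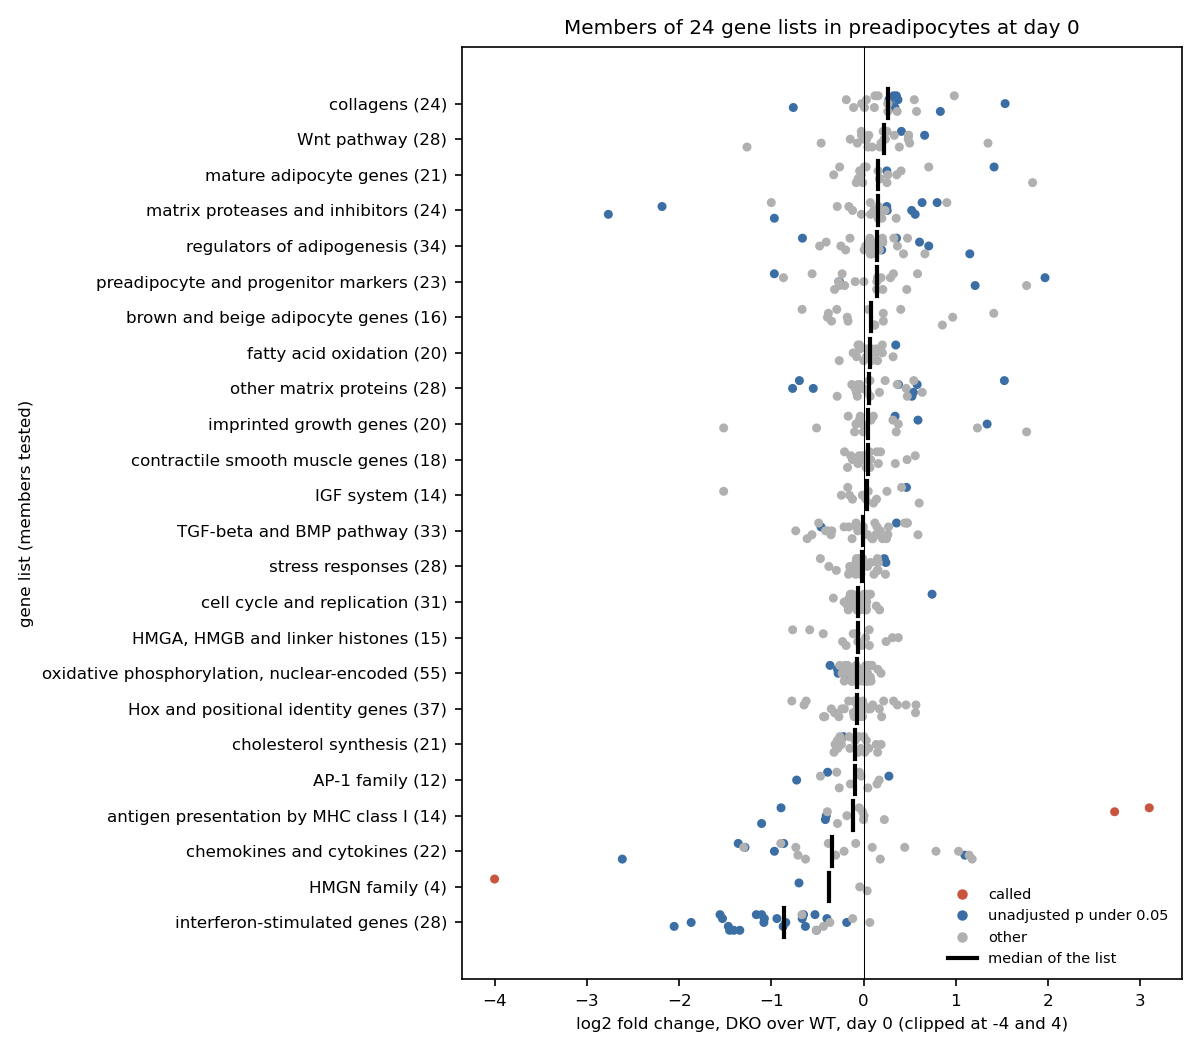
Log2 fold change, DKO over WT, at day 0 for the tested members of 24 gene lists (rows, number tested in parentheses), clipped at -4 and 4. Red points were called, blue points had an unadjusted p-value under 0.05, and black lines mark list medians. The interferon-stimulated genes have the lowest median (-0.86) and the collagens the highest (0.27).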

How the data were processed

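RNA of 24 preadipocyte and 24 MEF libraries (3 per genotype, cell source and day) had been sequenced as strand-specific 50 bp paired-end reads. The labels give the molecule as polyA RNA and the study's methods name a stranded total RNA kit, so the selection of RNA is unclear. Per the study's methods and the submitters' processing notes, the authors demultiplexed with bcl2fastq 2.17, trimmed with Cutadapt 1.18, aligned to mm10 with STAR 2.7.0f and estimated reads per gene with RSEM 1.3.0. They deposited these expected counts, 1 table per cell source, without normalization or pooling of replicates. Reads that match several genes are shared out by RSEM, and 7.05% to 7.9% of the values of a day 0 library were not whole. The annotation release is not given in the sources used here, and all 55450 identifiers matched GENCODE M21, which gave positions and transcripts. No column was left unmapped.

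Counts were rounded to whole numbers. The main test was edgeR 4.0.16 in R 4.3.3 (filterByExpr, TMM, robust quasi-likelihood fit, genotype as the only term, Benjamini-Hochberg adjustment over all genes tested). Each day and cell source was fitted on its own, and interactions with day or cell source were fitted on the libraries of both. Plotted log2 levels use TMM-scaled CPM plus 0.5. A gene at 0 in a whole group was given a bound from a floor of 3 counts per library, which covers counting error only. Other settings tried were library size scaling, DESeq2 1.42.0, limma-voom 3.58.1 with quantile normalization, no filter, 0.5 CPM in 2 libraries, 1 fit over 24 libraries, other fold change thresholds, omission of each library and a replicate block. The edgeR test of day 0 with and without the block, DESeq2, limma-voom and the edgeR interaction of day 6 were tested on simulated data. The DESeq2 interactions, the blocked interactions and the fit over 24 libraries were not. The genes, 25 lists and tests were chosen with earlier results of these data known. Named are the HMGN genes, the called genes, up to 4 members per list with the smallest p-values, genes the study names, neighbours of the targeted genes, 5 uncalled genes per direction with the smallest p-values and cell type markers. Further list members, Ercc1 and parent genes of copies were named after their values were seen. The values of a few genes that this rule names are not reported here, although counts, sums and medians include them.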

Additional observations from a re-analysis of the deposited data

Results flagged for a closer look

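The DKO effect of day 0 was set against that of later days and of MEFs with an edgeR interaction test, and genes whose effects differed at an adjusted p-value under 0.05 are given here. The test called 2 of 15999 genes for day 3, 738 of 16236 for day 6, 9 of 16216 for day 9 and 14 of 16581 for MEFs at day 0. Without adjustment, 996, 3582, 2556 and 1233 genes had a p-value under 0.05. Values below are log2 differences of the DKO effect, the other comparison minus preadipocytes at day 0.

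Of the genes called at day 0, Psmd8 alone differed at day 3 (0.70), and it also differed at days 6 (1.23) and 9 (0.91) and in MEFs (0.68). The DKO effect on Psmd8 was thus further below 0 in preadipocytes at day 0 than in each of these, and at day 6 its log2 fold change was 0.26. Flt1 differed at day 6 (1.70) and in MEFs (2.55), 9330104G04Rik (2.38), Pvr (0.99) and Ercc2 (0.69) at day 6. The copies Gm9625 and Gm8730 were further lowered at day 6 (-1.24 and -1.35), at day 9 (-1.31 and -1.35) and in MEFs (-1.07 and -1.35). H2-T22 differed by 0.96 at day 6. BC023719, with DKO libraries at or near 0, differed at day 6 with an adjusted p of 0.0345, and no size is given for it. In MEFs H2-T10 (4.47), H2-T22 (-3.21), H2-T23 (-3.00) and Gm1821 (2.24) differed, each returning the effect towards 0 there. MEF and preadipocyte libraries also differ in tissue and table, which cannot be told apart from cell source.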

How the results depend on the processing

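All 33 calls kept their sign in each of 13 other fits, and 8 were called in every fit that left out 1 library (Gm9625, Gm8730, H2-T10, H2-T22, Gm21596, Gm45104, Hmgn2 and BC023719). Genes called in 0 of these 6 fits included Rplp0, Mtrex, Ercc2, Mill2, Igsf23, Gm10182 and 9330104G04Rik. Those called in only 1 of them were Clec16a, Tgfbi, Coq2, Mid1-ps1, Slfn2, Gm3375, AC154457.3, Pvr and Gm14165. The number called was 145 with DESeq2 (62 higher, 83 lower), 65 without a filter, 90 in 1 fit over 24 libraries, and 33 to 36 under library size scaling, voom and the 0.5 CPM filter. Without WT replicate 1, 2 or 3 it was 18, 13 or 14, and omission of DKO replicate 1, 2 or 3 gave 26, 11 or 19, so the number of calls depends on each library. Same-numbered WT and DKO libraries had correlations of 0.31, -0.276 and 0.556 after removing the group means. Pairs with different numbers had correlations from -0.683 to 0.429. Whether libraries of the same number were handled together is not in the labels and was not tested. With the replicate number as a block 8 genes were called.

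Genes called again numbered 12 to 18 at day 3 and 11 to 22 at day 9 when 1 library of that day was left out. In MEFs at day 0 they numbered 15 with DESeq2, 3 with the block and 5 to 12 with a library left out, at day 4 they numbered 5 with the block and 5 to 9, and at day 8 12 with DESeq2, 2 with the block and 5 to 6. At day 6 and MEF day 12 the ranges were 22 to 22 and 14 to 15. Interaction calls for day 3 were 92 with DESeq2 and 4 without a filter. They were 0 with the replicate number within each genotype as a block and 0 to 1 with a day 0 library left out. For day 6 they were 1574, 198 with the block and 127 to 690, and for day 9 699, 32 without a filter, 0 with the block and 3 to 14. Against MEFs they were 52 with DESeq2 and 10 to 12 with a library left out. The cause of these differences was not tested.

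Among 85 other named genes, 14 of 1105 values changed sign, all near 0. Col1a2 was -0.094 with voom and Brwd1 -0.011 with library size scaling. With a library left out, the log2 fold change ranged from -0.16 to 0.086 for Hmgn3, -0.037 to 0.18 for Hmgn5, -0.040 to 0.074 for Brwd1, -0.12 to 0.098 for Rps6ka1, -0.14 to 0.13 for Jun and -0.16 to 0.14 for Junb. Of 200 list medians, 24 moved by more than the spread between replicates. With 3 libraries a genotype, an exact two-sided permutation test of a single gene cannot go below 0.1.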
